A study of Saccharomyces cerevisiae with 15 samples.

Results

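Of 9 budding yeast genes for making sugar from small carbon compounds and taking those up, 8 were called below the median gene in YPD. The call was made on the RNA/DNA ratio, and 31.2% of all genes tested were called below. ADR1 also lay under the median gene on both arrays but was not called. The 9 genes are FBP1 and PCK1 of gluconeogenesis, ICL1 and MLS1 of the glyoxylate cycle, the transporters JEN1, ADY2 and SFC1, and the transcription factors CAT8 and ADR1. They were chosen by name among 6256 genes on the array, and all 9 were found under the names used here. The series set strand-specific and control sequencing libraries beside reference expression levels from 2 arrays. Its sequencing data, 13 libraries, were not analysed here.

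Both arrays belong to 1 group. On each, Cy3-labelled total RNA of the Saccharomyces cerevisiae strain BY4741 in YPD was hybridised with Cy5-labelled genomic DNA, named as BY4741 in one label and as progenitor in another. The labels give no treatment, and the series' design calls the RNA a mid-log sample. BY4741 is a haploid a-type strain of the laboratory with deletions in HIS3, LEU2, MET17 and URA3. At these 4 genes the DNA intensity ran from -3.11 to 7.39 over both arrays, against medians of 4184 and 4558 over genes, which is at background. The a-cell genes MFA1, MFA2 and STE2 were above the median gene, and the alpha-cell genes STE3 and MF(ALPHA)1 below it. Whether each array had its own culture is not stated in the labels, and a single slide carried both. The p-values therefore rest on a spread that may be only technical.

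While glucose is plentiful, yeast ferments it and represses most of these genes. When glucose runs out, the kinase Snf1 becomes active, the repressor Mig1 leaves the nucleus, and the activators Cat8 and Adr1 switch on genes for using ethanol, acetate, lactate and fatty acids. The glyoxylate cycle then turns acetyl units into malate and succinate without losing carbon as carbon dioxide. Gluconeogenesis carries this carbon back to hexose phosphates, bypassing the irreversible steps of glycolysis. When glucose returns, several of the enzymes are also degraded, through the GID ubiquitin ligase.

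Each gene had 1 probe printed as 7 spots, so no value is summed along the length of a gene. Whether gene length or probe position affects the signal was not tested. A level is given in 2 ways. The RNA intensity is the median over spots of the background-subtracted Cy3 signal, in arbitrary units. The ratio is log2(RNA/DNA), the median over spots, minus the median over genes of the same array, so that 0 is the median gene. RNA counts as detected above a floor of 3 SD of the 153 negative control spots, which was 17.05 on array 1 and 32.9 on array 2. For the median gene the RNA intensity was 1135 and 1390 on arrays 1 and 2. A gene was called below or above the median gene when limma gave an adjusted p under 0.05 and the ratio lay at least 1 away from 0. With 2 arrays, each SD given is itself imprecise. A culture average cannot tell apart fewer cells that transcribe a gene and less RNA in each cell.

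Of the 9 genes, 8 were called below the median gene, and ADR1 was not. Over all 6250 genes tested, 31.2% were called below and 28.2% above. The median ratio of the 9 was -3.11, beside -0.0022 over all genes. All 9 lay under the median gene on both arrays. RNA of all 9 was also detected on each array, as was that of 91.2% of all genes. The adjusted p of the 8 called genes ran from 5.15e-05 to 0.000149 (limma, Benjamini-Hochberg over 6250 genes). Such values set few of the genes in the related lists given further on apart. By adjusted p alone, 41 of those 67 genes were below and 22 above. The share of all genes under that rule was not counted, and 31.2% and 28.2% belong to the rule with the ratio threshold.

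**Figure D1:**
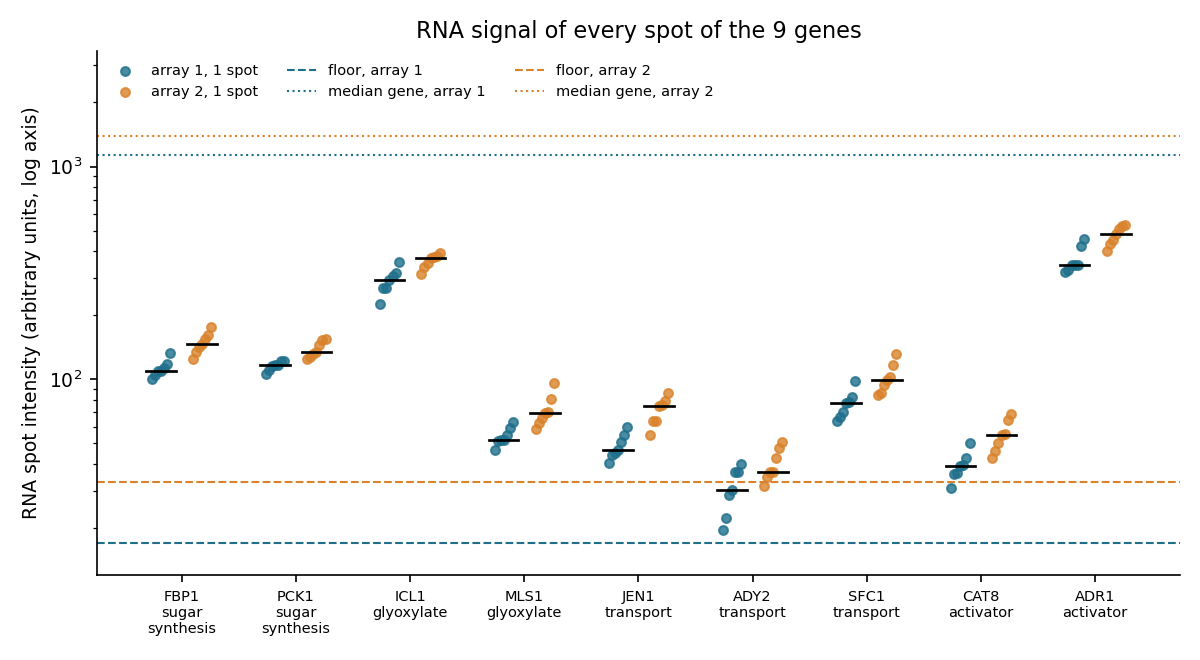
Background-subtracted RNA intensity of each of the 7 spots per gene on array 1 and array 2 (log axis); black bars are medians, dashed lines the floors and dotted lines the median gene. All 126 spots lie under the median gene of their array, and ADY2 lies nearest to the floor, with 1 spot under it on array 2.

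The gluconeogenic enzymes were low but clearly detected. FBP1 (YLR377C), fructose bisphosphatase, read 110 in RNA intensity on array 1 and 147 on array 2. These are 9.66% and 10.6% of the median gene's signal, and 6.43 and 4.47 times the floor. Its ratio was -2.66 on array 1 and -2.57 on array 2, a mean of -2.61 ± 0.06 (SD, n = 2), or 6.13-fold under the median gene. PCK1 (YKR097W), phosphoenolpyruvate carboxykinase, which starts the pathway from oxaloacetate, had intensities of 116 and 135. Its ratio was -2.87 on both arrays (SD 0.0016), or 7.29-fold under the median gene. The spots of PCK1 spanned 106 to 122 on array 1 and 125 to 155 on array 2. Those of FBP1 spanned 101 to 133 and 125 to 176, so the spots of the pair overlapped on both arrays. By RNA intensity PCK1 was the higher on array 1 and FBP1 on array 2. By ratio FBP1 was the higher on both, by 0.25 on average.

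The glyoxylate cycle enzymes differed from each other by more than the spread between arrays. ICL1 (YER065C), isocitrate lyase, which splits isocitrate into succinate and glyoxylate, had RNA intensities of 293 and 373. Its ratio was -2.67 on array 1 and -2.55 on array 2, a mean of -2.61 ± 0.08. MLS1 (YNL117W), malate synthase, which joins glyoxylate to acetyl-CoA in the next step, had intensities of 51.8 and 69.8. Its ratio was -4.01 and -3.99, a mean of -4.00 ± 0.02, or 16.0-fold under the median gene. MLS1 thus lay below ICL1 by 1.34 on array 1 and 1.43 on array 2. Its RNA signal was 0.177 times that of ICL1 on array 1 and 0.187 times on array 2. No spot of one gene reached the range of the other, as the lowest ICL1 spots read 227 and 313 and the highest MLS1 spots 62.9 and 95.9.

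The transporters included the lowest gene of the set. ADY2 (YCR010C), also called ATO1, an acetate transporter of the plasma membrane, had RNA intensities of 30.4 and 36.8, or 1.78 and 1.12 times the floors. Its ratio was -4.92 and -4.86, a mean of -4.89 ± 0.05, or 29.7-fold under the median gene. Its 7 spots ran from 19.6 to 40.1 on array 1 and from 31.5 to 50.8 on array 2, where 1 spot fell under the floor. Without background subtraction ADY2 stood at -4.03. JEN1 (YKL217W), which carries lactate and pyruvate into the cell with protons, had intensities of 46.7 and 74.7. Its ratio was -3.57 on array 1 and -3.28 on array 2, a mean of -3.42 ± 0.21, the widest spread between arrays of the 9 genes. SFC1 (YJR095W) exchanges succinate from the cytosol for fumarate across the inner mitochondrial membrane, which links the glyoxylate cycle to respiration. Its intensities were 77.5 and 99.1, and its ratio was -3.15 and -3.07, a mean of -3.11 ± 0.05, or 8.63-fold under the median gene.

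The transcription factors lay far apart. CAT8 (YMR280C), a zinc cluster activator of gluconeogenic and glyoxylate genes, had RNA intensities of 39.2 and 55.0, or 2.30 and 1.67 times the floors. Its ratio was -3.55 and -3.33, a mean of -3.44 ± 0.15, or 10.9-fold under the median gene. ADR1 (YDR216W), a zinc finger activator of ADH2 and of peroxisomal genes, had intensities of 345 and 481. Its ratio was -0.79 and -0.75, a mean of -0.77 ± 0.03, with an adjusted p of 0.000355 (limma) but inside the threshold of 1. ADR1 exceeded CAT8 by 2.76 on array 1 and 2.58 on array 2 on the log2 ratio scale. In RNA intensity it was 8.79 and 8.74 times CAT8. With the RNA channel alone, ADR1 was called below at -1.63 and CAT8 stood at -4.76.

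**Figure D2:**
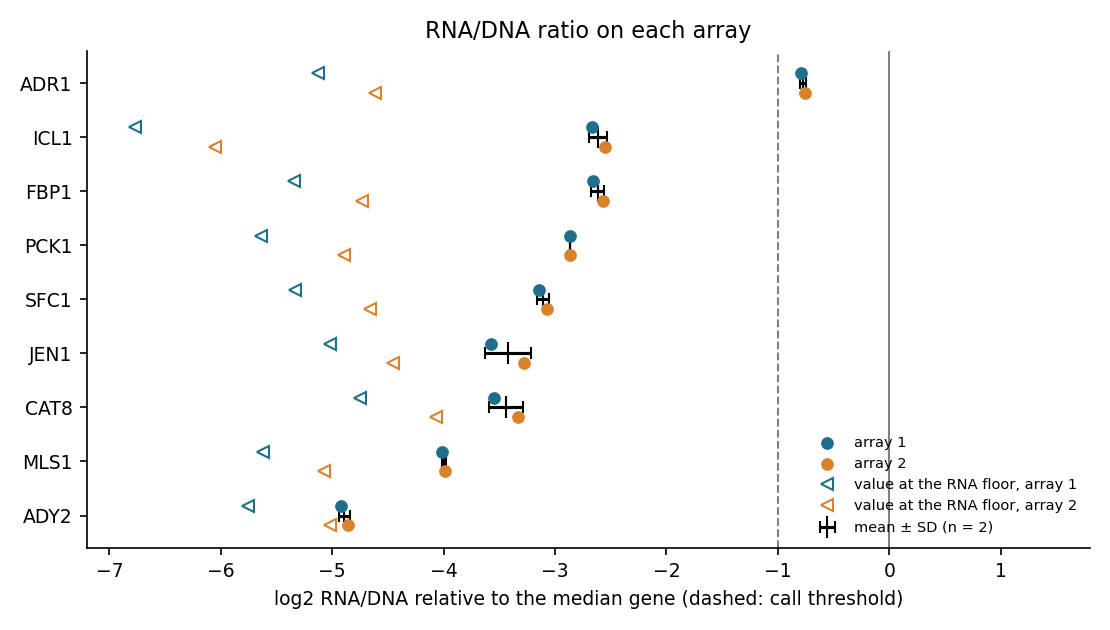
log2 RNA/DNA relative to the median gene (x axis) for the 9 genes, with 1 point per array, the mean ± SD (n = 2), and as open triangles the value each gene would have with its RNA at the floor. The genes run from ADY2 at -4.89 to ADR1 at -0.77, and the point of ADY2 on array 2 lies next to its bound.

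In order of ratio the genes ran ADY2, MLS1, CAT8, JEN1, SFC1, PCK1, FBP1, ICL1 and ADR1. Of the 8 gaps between neighbours in this order, 6 had the same sign on both arrays and a mean larger than the sum of the SDs of both genes. CAT8 and JEN1 differed by -0.02 on array 1 and 0.06 on array 2, and FBP1 and ICL1 by -0.01 and 0.02, so neither pair could be ordered. The gap from ICL1 to ADR1 was 1.84 and that from ADY2 to MLS1 was 0.89. From the lowest to the highest gene the ratio spanned 4.12 on the log2 scale. The ratio was higher on array 2 than on array 1 for 8 of the 9 genes, PCK1 being the exception, by up to 0.30 for JEN1. Over all genes 51.9% were higher on array 2. Spots of 1 gene on 1 array differed by an SD of 0.07 to 0.34 on the log2 ratio scale, beside medians over all genes of 0.20 on array 1 and 0.12 on array 2.

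The order of the genes differed between the ratio and the RNA intensity. The DNA intensity lay under that of the median gene for 8 of the 9 genes, and by its definition the ratio is higher where the DNA signal is lower. CAT8 had DNA intensities of 1541 and 1657, at percentile 1.60 of all genes, and JEN1 was at percentile 4.98. ICL1 was the exception, with 6158 and 6803 at percentile 78.6. FBP1 and ICL1 had ratios that could not be told apart, while the RNA intensity of ICL1 was 2.67 times that of FBP1 on array 1 and 2.54 times on array 2. Its DNA intensity was 2.40 and 2.58 times that of FBP1. CAT8 lay above MLS1 by ratio and below it by RNA intensity on both arrays. With the RNA channel alone, FBP1 stood at -3.31, JEN1 at -4.41, SFC1 at -3.84 and ICL1 at -1.93, each shifted by more than 1.5-fold. All 9 were then called below, where 29.9% of all genes were. What sets the DNA signal of a probe was not tested.

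**Figure D3:**
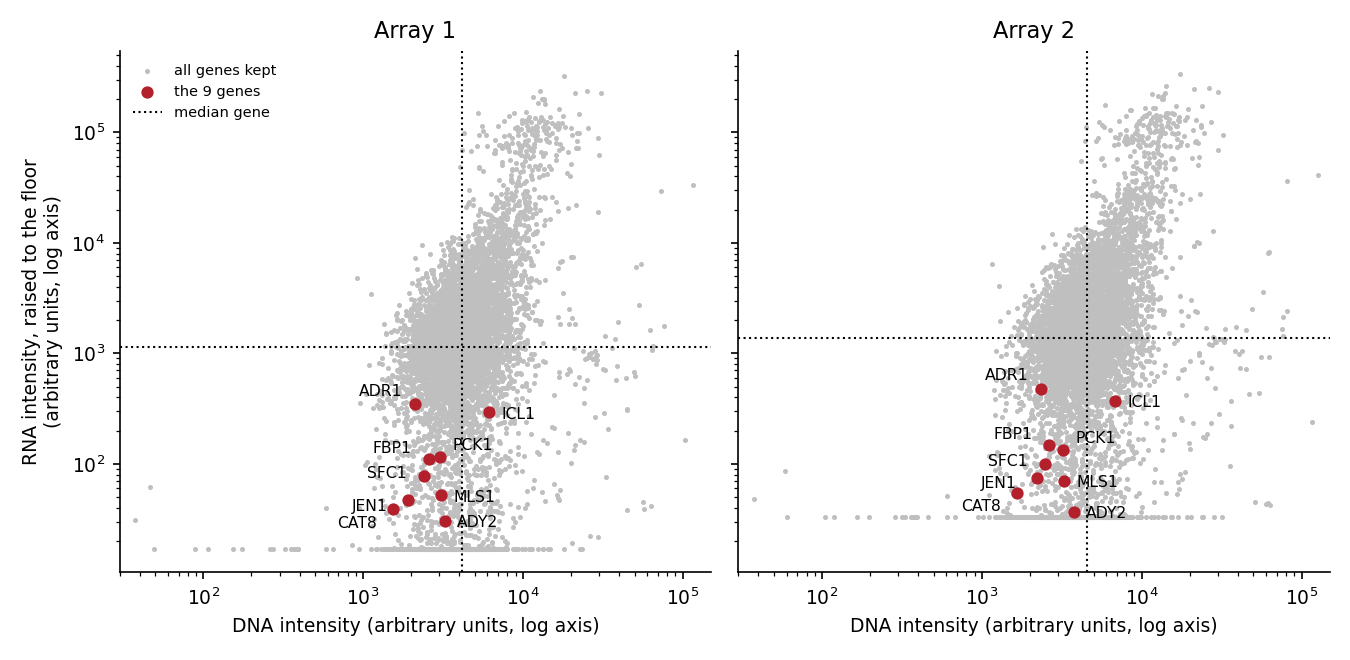
RNA intensity against DNA intensity of every gene kept (grey) and of the 9 genes (red) on each array, both axes log, with RNA raised to the floor and dotted lines at the median gene. The 9 genes lie in the lower part of each cloud, and ICL1 is the only one to the right of the median DNA signal.

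How far these signals stood above background differed between genes. The negative control spots had a median of -4.53 on array 1 and -5.84 on array 2, but their highest spots read 49.8 and 76.8. On array 1, 3 of the 9 genes had a median under that highest control spot, ADY2, CAT8 and JEN1. On array 2 there were 4, the same genes and MLS1. Of the 153 control spots, 1 reached the level of ADY2 on array 1 and 4 did on array 2. STE3, the receptor gene of alpha cells, is not needed in an a strain, and its ratio was -3.12 ± 0.10 with RNA intensities of 55.9 and 65.2. The ratios of 4 genes, ADY2, MLS1, CAT8 and JEN1, were lower than that of STE3. The RNA intensities of the same 4 were lower than that of STE3 on array 1, but on array 2 only 2 were, ADY2 and CAT8. The other alpha-cell gene, MF(ALPHA)1, read 9.51 on array 1 and 14.5 on array 2, under the floors, with a ratio of at most -3.96. All 9 genes exceeded MF(ALPHA)1 in RNA intensity on both arrays, and only ADY2 and MLS1 had ratios under its bound. The medians of SFC1, FBP1, PCK1, ICL1 and ADR1 exceeded every control spot on both arrays.

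Paralogs of the 9 genes stood at different levels. DAL7, a malate synthase of allantoin breakdown, was called below at -1.20 ± 0.04 and exceeded MLS1 by 2.84 on array 1 and 2.76 on array 2. Its RNA intensity was 7.20 and 6.73 times that of MLS1. ICL2, a mitochondrial relative of isocitrate lyase that acts on methylisocitrate, was not called at -0.57 ± 0.02 and exceeded ICL1 by 2.04 on average. With the RNA channel alone ICL2 was called below, at -1.11. ATO2, called FUN34 in the files and closest to ADY2, was at most -5.42, with RNA of 28.9 on array 1 and, under the floor, 32.5 on array 2. ATO3, a more distant relative, was above at 1.04 ± 0.0007 and exceeded ADY2 by 5.93, but fell short of the threshold at 0.84 when only genes with detected RNA set the centre. ATO3 stood at 2.31 with the RNA channel alone, and ATO2 at -4.51 without background subtraction. MLS1 and DAL7, and ADY2 and ATO2, are similar in sequence, and how much signal their probes share was not tested.

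The enzymes of the opposing glycolytic steps were high, with 1 exception. PFK1 and PFK2, the subunits of phosphofructokinase, which FBP1 counteracts, were above at 2.71 ± 0.09 and 3.22 ± 0.03. They exceeded FBP1 by 5.32 and 5.83 on the log2 scale, that is 40.0-fold and 57.0-fold in RNA/DNA. CDC19, the main pyruvate kinase, was above at 5.63 ± 0.12. It exceeded PCK1 by 8.58 on array 1 and 8.41 on array 2, a 361-fold difference in ratio. PYK2, the pyruvate kinase isozyme that is repressed by glucose, was below at -1.72 ± 0.0028, though 1.14 higher than PCK1. Each of these differences between genes was larger than its SD over both arrays. No test of these differences was run. With the RNA channel alone PFK1 stood at 4.11, PFK2 at 3.89 and CDC19 at 7.27.

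**Figure D4:**
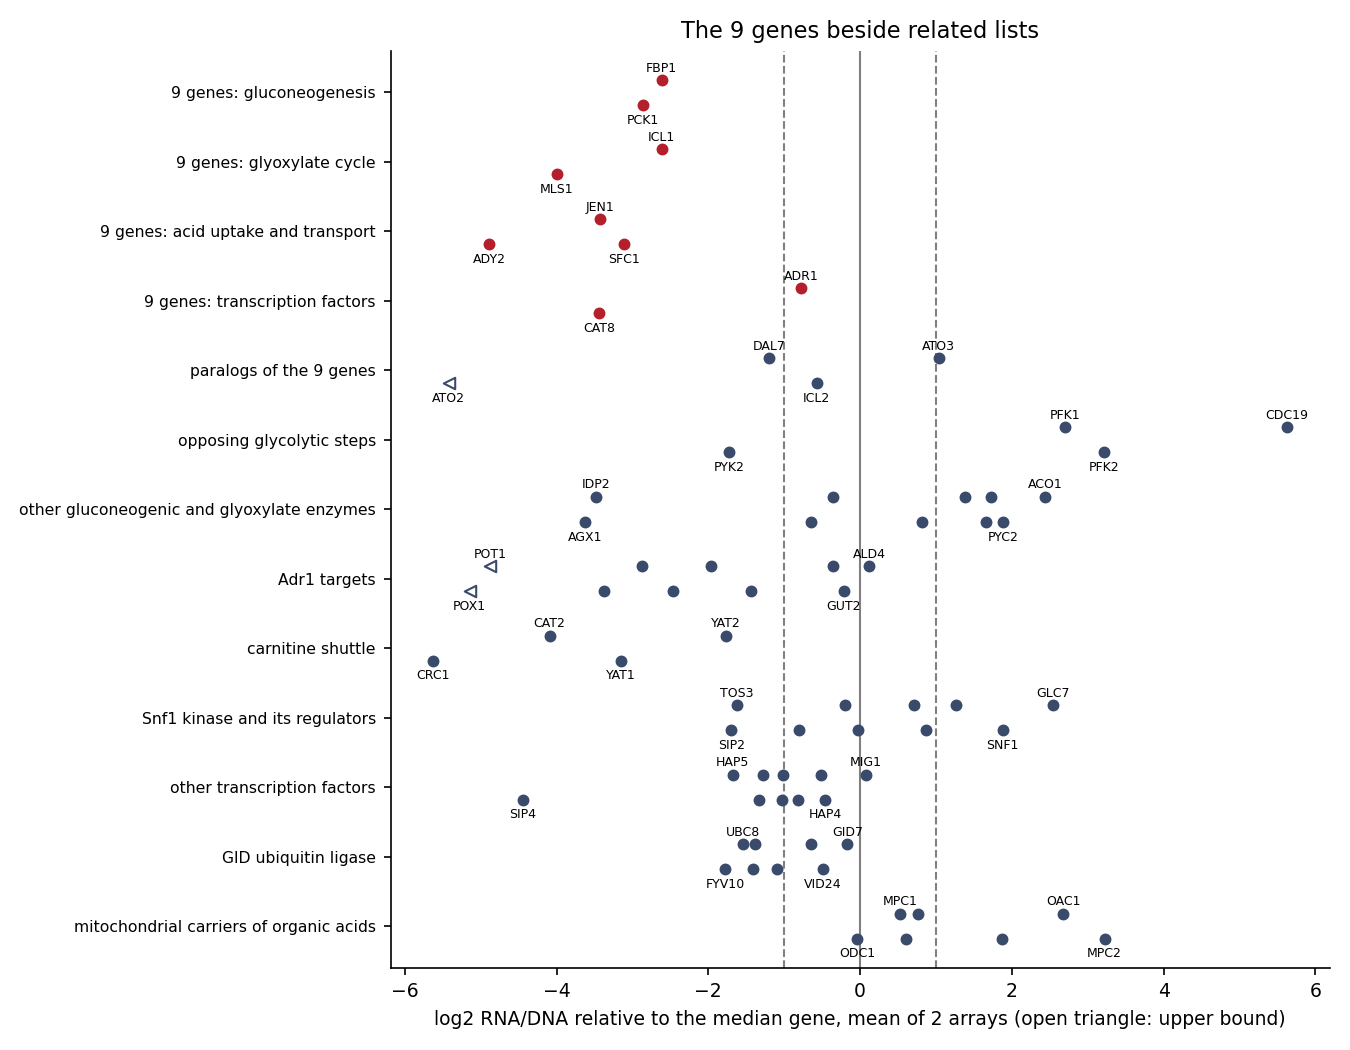
Mean log2 RNA/DNA of 2 arrays relative to the median gene (x axis) for the 9 genes (red) and for 67 genes of related lists (blue), 1 row per list; open triangles are upper bounds and dashed lines the call thresholds. The carnitine shuttle and most Adr1 targets lie left of the lower threshold, while organic acid carriers and most other enzymes of the pathways lie right of it.

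Of the 67 genes in related lists, which include these paralogs and glycolytic enzymes, 29 were called below and 15 above. That is 43.3% and 22.4%, beside 31.2% and 28.2% of all genes, and the counts of each list below are to be read against those shares.

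The other enzymes of gluconeogenesis and the glyoxylate cycle were mixed, with 5 of 10 above and 2 below. The highest were ACO1, aconitase, at 2.44 ± 0.06 and PYC2, a pyruvate carboxylase that supplies oxaloacetate, at 1.88 ± 0.03. The lowest were AGX1, which makes glycine from glyoxylate, at -3.62 ± 0.01 and IDP2, the cytosolic isocitrate dehydrogenase that makes NADPH, at -3.48 ± 0.05. MDH2, the cytosolic malate dehydrogenase of gluconeogenesis, was above at 1.38 ± 0.01, and CIT2, the peroxisomal citrate synthase, was not called at 0.82 ± 0.01. MDH2 and CIT2 were singled out after their values were seen. AGX1 stood at -2.82, IDP2 at -2.77 and PYC2 at 2.55 with the RNA channel alone.

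Adr1 targets were mostly low, with 7 of 10 below and 3 not called. POX1 and POT1, of peroxisomal fatty acid oxidation, were at most -5.14 and -4.87, with POX1 RNA under the floor on both arrays and POT1 RNA on array 2. GUT2, of glycerol use, stood at -0.21 ± 0.0029 and ALD4, the mitochondrial aldehyde dehydrogenase, at 0.12 ± 0.04. All 4 genes of the carnitine shuttle, which moves acetyl units into mitochondria, were below. CRC1, the carrier, was at -5.63 ± 0.15, CAT2 at -4.09 ± 0.05, YAT1 at -3.15 ± 0.02 and YAT2 at -1.77 ± 0.08. Without background subtraction, POX1 stood at -4.31, POT1 at -3.81 and CRC1 at -4.74. The bounds of POX1 and POT1 thus hold only for subtracted signals. With the RNA channel alone YAT1 stood at -1.93, CRC1 at -4.99, POT1 at -5.57 and GUT2 at -0.85.

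The regulators ranged from well above to far below the median gene. Of 10 genes for the Snf1 kinase and its regulators, 3 were above and 2 below, with GLC7, the phosphatase catalytic subunit, at 2.54 ± 0.12 and SNF1 itself at 1.88 ± 0.07. SIP2, a beta subunit, was at -1.70 ± 0.03 and TOS3, an upstream kinase, at -1.63 ± 0.05. Of 10 other transcription factors, 6 were below and 4 not called. SIP4, a zinc cluster activator that binds the same promoter elements as Cat8, was lowest at -4.44 ± 0.21, or 1.00 under CAT8. HAP5 was at -1.68 ± 0.01, HAP4 at -0.46 ± 0.16 and the repressor MIG1 at 0.08 ± 0.06. SIP4 stood at -3.52 without background subtraction and at -5.20 with the RNA channel alone, where MIG1 stood at 0.73.

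Of the 8 GID ligase genes, 5 were below and 3 not called, from FYV10 at -1.78 ± 0.06 and UBC8 at -1.55 ± 0.0034 to VID24 at -0.49 ± 0.03 and GID7 at -0.17 ± 0.04. UBC8 was no longer called with the RNA channel alone, at -0.85. Of 7 mitochondrial carriers of organic acids, the class to which SFC1 belongs, 3 were above and 4 not called. MPC2, of the pyruvate carrier, was at 3.22 ± 0.12 and OAC1, the oxaloacetate carrier, at 2.68 ± 0.02. ODC1 stood at -0.04 ± 0.08 and MPC1 at 0.53 ± 0.08, both above SFC1 by more than the spread between arrays. MPC2 stood at 3.94 and ODC1 at -0.97 with the RNA channel alone.

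**Figure D5:**
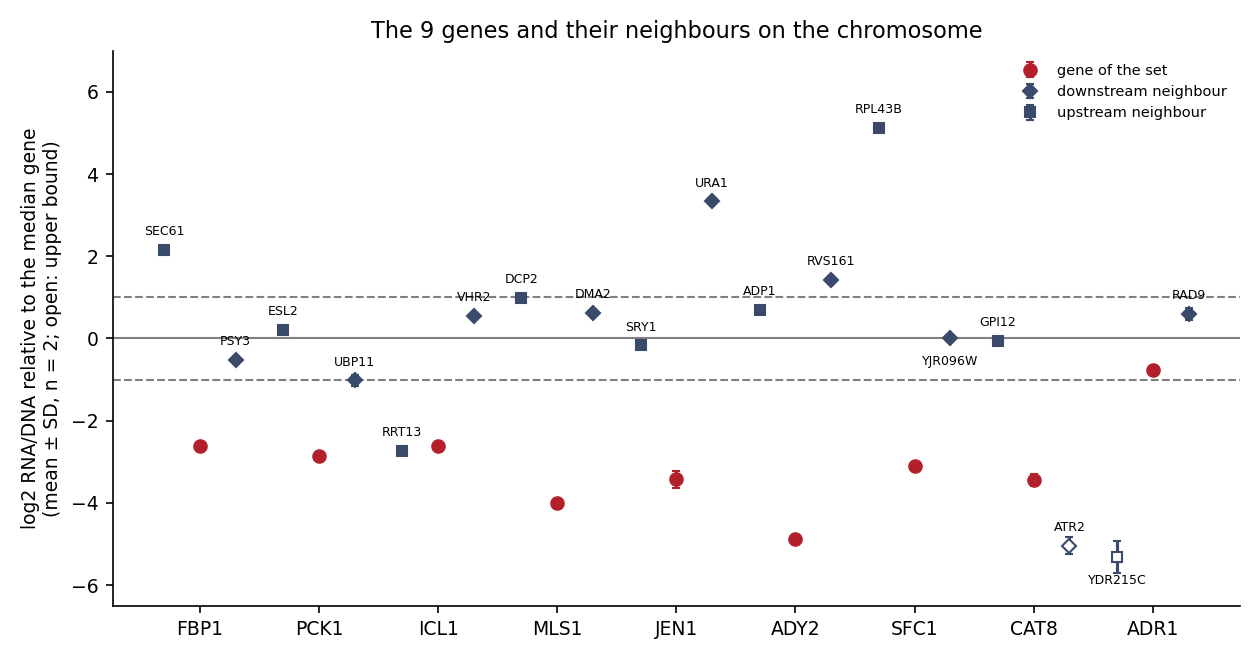
Mean log2 RNA/DNA ± SD of 2 arrays relative to the median gene for each of the 9 genes (circles), its upstream neighbour (squares) and its downstream neighbour (diamonds); open symbols are upper bounds and dashed lines the call thresholds. Of the 18 neighbours, 15 lie above the gene they flank.

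The genes next door on the chromosome stood at levels from far above to far below the median gene. Among the 18 nearest annotated protein genes on either side, 4 were called below, 4 above and 10 not called, and their median was 0.38. Over all genes 31.2% were called below and 28.2% above, so these counts say nothing particular of the neighbours. All 18 were measured, and 15 had a higher ratio than the gene they flank, while 8 of the 9 genes themselves lie at percentiles 8.47 to 17.0 of all ratios, under most genes. SFC1 lies downstream of RPL43B, a ribosomal protein gene at 5.12 ± 0.09 whose near-identical copy makes its own level uncertain, 8.23 above SFC1. JEN1 is followed by URA1, of pyrimidine synthesis, at 3.34 ± 0.01, and FBP1 has SEC61, of the protein translocation channel, on its upstream side at 2.15 ± 0.04. Upstream of 5 of the genes lies a gene read in the opposite direction, so that both start from a shared stretch. DCP2, of mRNA decapping, was 4.99 above MLS1 in such a pair. SRY1 was 3.26 above JEN1 and GPI12 3.38 above CAT8. RRT13 at -2.74 ± 0.06 and ICL1 could not be ordered, since their gap was smaller than the sum of their SDs. YDR215C, at most -5.32, lay under ADR1 in the last such pair. Also lower than its gene was ATR2, downstream of CAT8, at most -5.04.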

How the data were processed

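The authors extracted the deposited spot intensities, per the submitters' processing notes, using Feature Extraction 10.5.1.1 of Agilent. The intensity values used had a fitted spatial background subtracted and can be negative, per the file headers, which record no dye normalization. RNA carried Cy3 and DNA Cy5 on both arrays, which leaves dye and molecule confounded. Spots were kept when the DNA signal was well above background and no saturation or non-uniformity was marked in either channel on both arrays (43721 of 43792 spots, 6250 of 6256 genes, and all 7 spots of each of the 9 genes). RNA intensities under the floor were raised to it before taking log2, and a gene whose median RNA did not exceed it on both arrays is given as at most its ratio.

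Ratios were tested with limma 3.58.1 under R 4.3.3 (two-sided, an intercept as the sole term, empirical Bayes without trend, Benjamini-Hochberg adjustment), tried first on simulated data. Other values came from Python 3.11.15 with numpy 2.4.6 and pandas 2.3.3, and plots from matplotlib 3.10.9. List symbols and chromosomal neighbours were taken from the RefSeq assembly R64, matched on systematic names. The files name no genome build, so no coordinates are given. The 9 genes and the lists were chosen with earlier results of these data known. Of the lists other than paralogs and glycolytic steps, the 2 highest and 2 lowest genes are named. Alternatives changed the signal, background, reference channel, normalization, centre, spot summary and filter, floor, test, thresholds and arrays.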

Additional observations from a re-analysis of the deposited data

How the results depend on the processing

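Of the 9 genes, 8 were called below the median gene under 11 of 13 alternative settings. All 9 were called below under the others, the RNA channel alone and adjusted p alone. By adjusted p alone, 41 of the 67 related genes were also below and 22 above. Shares of all genes were counted only for the main setting and the RNA channel alone, so other counts have no such share beside them. All 9 kept a negative ratio under each of the 13 settings and on each array taken singly. With 1 array no test is possible, so no count was made without replicate 1 or without replicate 2. With the log2 threshold at 2, the related lists had 12 genes below and 7 above in place of 29 and 15, which follows from the stricter threshold. The shares of 31.2% and 28.2% of all genes belong to the threshold of 1 and do not apply to these counts. Without background subtraction CAT8 stood at -2.73 in place of -3.44, JEN1 at -2.85 in place of -3.42 and MLS1 at -3.46 in place of -4.00. These shifts were larger than the SD between arrays of each gene. When only genes with detected RNA set the centre, all ratios shifted by -0.20 on array 1 and -0.19 on array 2, and ADR1 reached -0.97. The robust floor (median plus 3 robust SD of the negative control spots), chosen after seeing the data, was 2.07 on array 1 and 1.00 on array 2. The median RNA of POX1, POT1 and ATO2 exceeded it on both arrays, and their ratios stood at -6.28, -5.09 and -5.58. The ratios of the 9 genes stayed the same to 2 decimals. No paired analysis was possible because there is only 1 group. Signal over background limits ADY2, CAT8, JEN1 and MLS1 most.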
